A study of Mus musculus with 4 samples.

Results

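The control array of this series holds RNA from untreated ST2 cells, an immortal mouse line of stromal cells with fibroblast-like shape that was taken from BALB/c bone marrow. It was chosen by its title, is 1 of 4 arrays, and gave a signal for 18194 genes, each represented by its brightest probe set with 1 gene symbol. The cells grew at 37 °C in medium with 10% serum under 5% CO2. The other 3 arrays hold these cells 0.5, 1 and 3 h after 20 min of low-intensity pulsed ultrasound at 25 mW per square cm. They enter here only as a check of how far the signals differed between arrays. Treatment, time and array cannot be told apart in that check. The line grows in culture apart from the vessels, bone surfaces and blood cells of marrow, and there was 1 control culture, so the spread between cultures was not measured and no test could be made.

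Stromal cells of bone marrow build the fibrous scaffold in which blood forms. They are known for secreting the chemokine CXCL12 and stem cell factor, which hold and feed blood stem cells, and for giving rise to bone-forming cells, fat cells and, in some settings, cartilage. ST2 cells are used as a feeder layer for blood cells and as a model of the choice between bone and fat. The values below describe what such cells transcribe before any stimulus, in the order matrix, contractile and skeletal lineage genes, stromal regulators, niche factors, markers of other cells, secreted factors and receptors.

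All values are log2 signals on 1 array, where a step of 1 is a doubling of signal. The genes ran from 1.73 to 14.48, with a median of 6.36. The array gives no detection calls here, so a background level was taken from 73 receptor genes of smell, taste and pheromone sensing, which stromal cells are not known to use. These had a median of 3.50, and their 95th percentile, 5.06, served as the background level. A gene was called bright above 7.71, the 75th percentile of all probe sets, a level that 0 of the 73 receptor genes reached and that was set after the values were seen. A gene between both levels is called dim. By these rules 11806 genes (64.9% of 18194) lay above background and 6748 (37.1%) were bright.

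**Figure D1:**
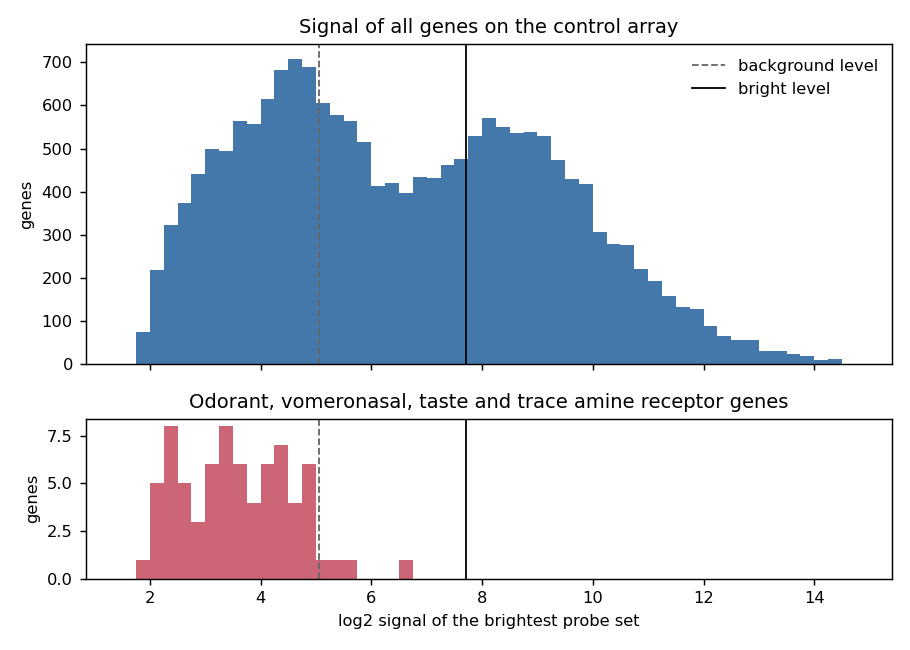
Number of genes by log2 signal of the brightest probe set on the control array, for all 18194 genes (upper panel) and for 73 sensory receptor genes (lower panel). The dashed line is the background level of 5.06 and the solid line the bright level of 7.71; the highest sensory receptor gene, Vmn1r44, lies at 6.74, below the solid line.

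Signals of different genes rest on different probes and cannot be read as relative numbers of transcripts. For 5416 genes with at least a pair of probe sets above background, the brightest probe set exceeded the next by a median of 0.83 on the log2 scale, and by more than 1 for 43.3% of these genes. Of 7223 genes above background with several probe sets, 3570 (49.4%) also had a probe set not above background. The other probe sets are given below for only some of the named genes. Genes with 3 or more probe sets were above background in 86.6% of cases, against 49.9% of genes with 1 probe set, so being above background moved with the number of probe sets. Between the 4 arrays, 3 of them from treated cells, the signals differed less, which does not measure the spread between untreated cultures. Of the genes above background on the control array, 11336 (96.0%) were above it on all 4 arrays, and the median range of a gene's signal over the 4 arrays was 0.20. A dim signal in a bulk culture can come from few cells or from little RNA in each cell, and these cannot be told apart here.

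The brightest genes encoded the cytoskeleton, the translation machinery and the matrix. Actb, a cytoplasmic actin, had the highest signal at 14.48, followed by Lgals1, a secreted galactose-binding lectin, at 14.46, and Vim, the intermediate filament protein of mesenchymal cells, at 14.46. Of the 40 brightest genes, 20 belonged to the list of cytosolic ribosomal proteins, and Rps3a1, outside that list, also encodes one. Others were Tmsb10 at 14.44 and Tmsb4x at 13.75, which encode actin-binding thymosins, and Actg1, the other cytoplasmic actin, at 14.28. Eef1a1, Eif5a and Pabpc1, factors of translation, read 14.26, 13.81 and 14.03, and Tpt1 and Naca read 14.37 and 13.87. Fth1, the heavy chain of the iron store ferritin, read 14.27 and Gapdh, a glycolytic enzyme, 14.08. The matrix was represented among the 40 by Col1a2 at 14.27 and Col1a1 at 13.88, the chains of type I collagen, by Ccn2, a matricellular growth factor modulator, at 13.98, and, outside the lists, by Mgp, an inhibitor of calcification, at 14.27. Acta2, smooth muscle actin, stood seventh at 14.33, and the calcium-binding protein gene S100a4, common in fibroblasts, at 13.88. The other probe sets of Acta2 read 7.37 and 4.68, and actin and ribosomal protein genes have close relatives with which probes can share signal. No gene of the secreted, receptor or other cell type lists was among the 40.

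Type I collagen and the fibrils and sheets that travel with it were bright, whereas collagens of cartilage and epithelium were dim or at background. Of 42 collagen genes, 27 were above background and 16 (38.1%) were bright, against 37.1% of all genes, and the family median was 6.12, against 6.36 over all genes. The bright members named here belong to known assemblies, and others, such as Col8a1 at 11.07, were bright too. The fibril-forming type III and V chains Col5a2, Col3a1 and Col5a1 read 13.32, 12.23 and 11.67. The 3 type VI chains, which form beaded filaments around cells, read 13.15 for Col6a3, 12.40 for Col6a2 and 12.22 for Col6a1. The ubiquitous type IV chains of basement membranes, Col4a1 and Col4a2, read 12.20 and 11.28, and Col12a1, a collagen that coats fibrils, read 9.93. In contrast, Col2a1, the main fibril chain of cartilage, was dim at 5.52, and Col11a1 at 3.69, Col17a1 at 3.45, which anchors epithelial cells, and the kidney and lung chains Col4a3 at 4.27 and Col4a4 at 3.73 were not above background.

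Most enzymes and chaperones that make collagen were bright. Of 22 with a value, 20 were above background and 16 (72.7%) were bright, against 37.1% of all genes, with a list median of 9.70. Serpinh1, the collagen chaperone HSP47, read 12.80, P4hb, a subunit of prolyl hydroxylase, 12.60, and Pcolce, an enhancer of procollagen cleavage, 12.66. The lysyl hydroxylases Plod3, Plod1 and Plod2 read 10.26, 9.75 and 8.83. The 2 members not above background were the proteases Adamts3, at 2.67, and Tll1, at 2.26, and Bmp1, a relative of Tll1 that also trims procollagen, was bright at 8.80.

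Of 17 elastic fibre genes, 14 were above background and 9 bright (52.9%, against 37.1% of all genes), with a median of 8.53. Lox and Loxl1, oxidases that cross-link collagen and elastin, read 13.60 and 11.65, and the fibulin genes Fbln2 and Fbln5 read 11.89 and 11.03, but Eln, elastin itself, was dim at 6.29. The latent TGF-beta binding proteins Ltbp1 and Ltbp3, which tether TGF-beta to the matrix, read 11.31 and 11.28. The dimmest probe sets of Lox, Fbln2, Fbln5, Ltbp1 and Ltbp3 read 4.59, 3.92, 4.81, 4.95 and 4.98, under the background level. Fbn2 at 3.81 and Efemp1 at 2.15 were not above background.

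Adhesive glycoproteins ranged from very bright genes to genes at background. Of 28, 14 were bright (50%), against 37.1% of all genes, and 19 were above background (67.9%), close to the 64.9% of all genes. The median was 7.18. Fn1, fibronectin, read 13.60, Sparc, a collagen-binding protein of bone, 13.51, Thbs1, thrombospondin 1, 13.41, and Ccn1, a matricellular protein, 12.21. Postn, periostin of bone surfaces and tendon, was dim at 6.45. Ibsp, bone sialoprotein, at 3.07, Comp, of cartilage and tendon, at 4.40, and Tgfbi at 3.84 were at background.

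Proteoglycans were bright about as often as all genes. Of 29, 10 were bright (34.5%, against 37.1% of all genes), with a median of 5.48. Bgn, biglycan, read 13.56, far from its close relative Dcn, decorin, whose brighter probe set read 5.07, just above the background level, and whose other probe set read 3.71. The small leucine-rich proteoglycan Lum read 3.44 and Aspn 3.07, both at background, whereas Prelp read 10.77 and Ogn 9.34. All 4 syndecan genes, membrane proteoglycans that bind growth factors, were bright, from 10.24 for Sdc3 to 11.71 for Sdc2. Acan, the cartilage aggrecan, at 4.65 was at background, and Vcan, versican of soft matrix, read 10.09.

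The bright integrin genes included chains of receptors for fibronectin, vitronectin and laminin. Of 24 integrin genes, 7 were bright (29.2%), against 37.1% of all genes. These were Itgav at 12.31, Itgb5 at 11.83, Itgb1 at 11.62, Itga5 at 11.01, Itga3 at 9.24, Itga6 at 7.92 and a margin case, Itga1, a collagen receptor chain, at 7.74. The leukocyte chains Itgb2 at 3.69 and Itgam at 2.68, and Itga4, which pairs with Itgb1 on blood cells, at 3.96, were not above background. In basement membranes, Lamb1, Lamc1, Nid1 and Nid2 read 10.68, 10.09, 10.04 and 9.92, while among laminin alpha chains only Lama5, at 8.61, was bright, and Lama1 at 4.42 and Lama3 at 4.95 were at background.

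**Figure D2:**
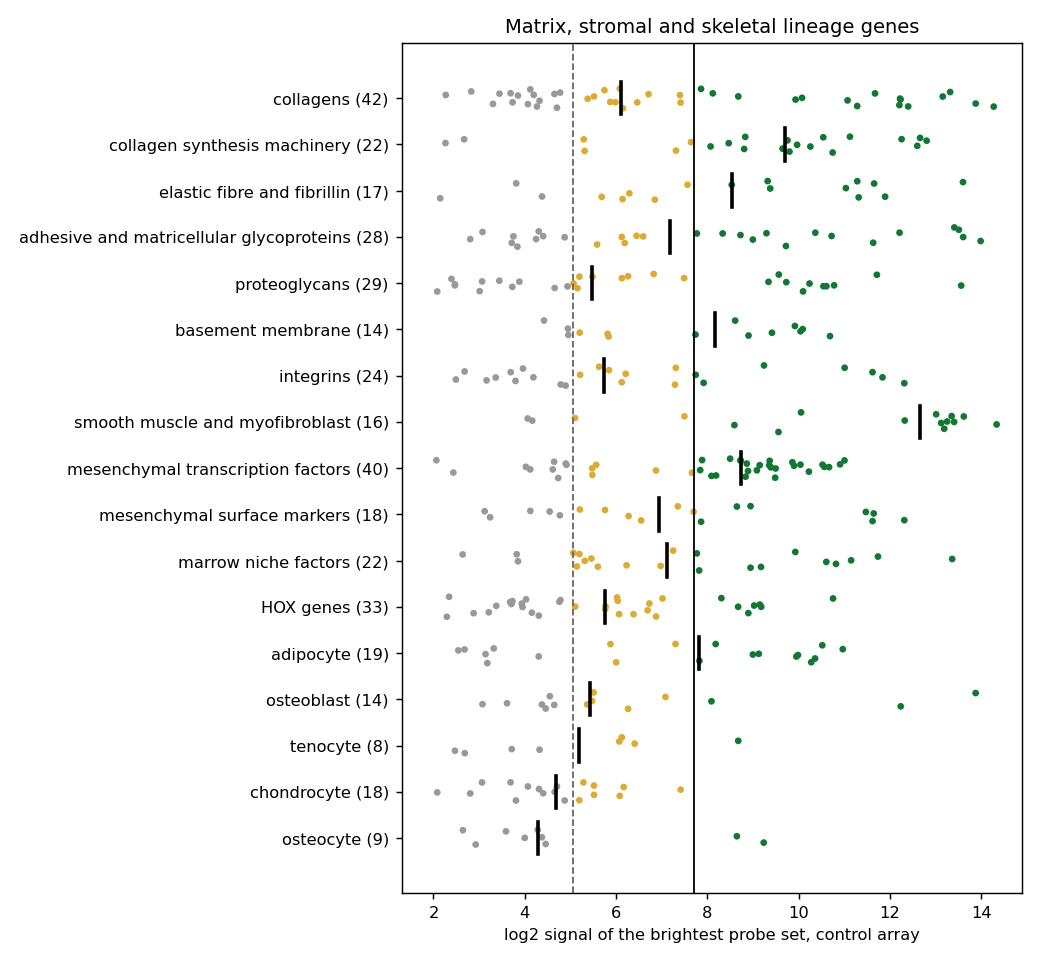
Log2 signal of the brightest probe set of each gene (points) on the control array, by list, with the number of genes with a value in brackets; green is bright, yellow dim and grey not above background, the black bar is the list median, and dashed and solid lines are the background and bright levels. The contractile list has the highest median (12.67) and the osteocyte list the lowest (4.28).

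Most contractile genes were bright in ST2 cells, but the heavy chain that defines mature smooth muscle was at background. Of 16 genes of smooth muscle and myofibroblasts, 12 were bright (75%), against 37.1% of all genes, and the median was 12.67. Besides Acta2, the actin-binding genes Tagln, Cald1 and Tpm2 read 13.19, 13.35 and 13.40, the myosin light chain gene Myl9 13.12 and Cnn1, calponin, 10.05. Actg2, the enteric smooth muscle actin, read 13.25, with the reservation about related actins given above. Des, the muscle intermediate filament desmin, and Synpo2, an actin-binding protein, were dim at 7.50 and 5.10. Myh11, smooth muscle myosin heavy chain, read 4.16, and Myocd, the coactivator that drives smooth muscle differentiation, read 4.06, both under the background level.

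Genes of the fat lineage were divided, with some regulators and lipid handling genes bright, and the hormones and other lipid handling genes at background. Of 19 adipocyte genes, 10 were bright (52.6%, against 37.1% of all genes), with a median of 7.83. Pparg, the nuclear receptor that commands fat cell differentiation, read 9.13, and its partners Cebpb and Cebpa read 10.36 and 8.18. Fabp4, a fatty acid carrier, read 9.98 and 9.39 by its brighter probe sets and 4.60 and 3.10 by the others, and Lpl, lipoprotein lipase, read 9.95. The hormones Adipoq, at 3.32, and Lep, at 3.18, the lipid droplet gene Cidec, at 3.14, and the fatty acid transporter Cd36, at 2.68, were all at background.

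Genes of bone-forming cells were bright less often by count than all genes. Of 14 osteoblast genes with a value, whose median was 5.42, 8 were above background (57.1%, against 64.9% of all genes). Of the 14, 3 were bright (21.4%), against 37.1% of all genes. These were Col1a1, Atf4, a stress-responsive transcription factor at 12.23, and Dlx5, a homeobox gene of the skeleton at 8.09. Sp7, osterix, the transcription factor that commits cells to bone, was dim at 5.51. Alpl, the alkaline phosphatase of mineralising cells, read 4.65, Pth1r, the parathyroid hormone receptor, 3.61, Phex 4.38 and Ibsp 3.07, all at background. The list names 20 symbols, and those with no value are not analysed here. Of 9 osteocyte genes, 2 were bright (22.2%, against 37.1% of all genes), Irx5 at 9.23 and Pdpn at 8.65, and Sost, Dmp1 and Fgf23, the secreted products of osteocytes, read 4.28, 2.92 and 3.59.

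None of 18 cartilage genes was bright, against 37.1% of all genes, and 7 were above background (38.9%), against 64.9% of all genes. Sox9, the cartilage master regulator, was dim at 6.17 by its brightest probe set, with 3.52 and 2.85 by the others, and Col10a1, of hypertrophic cartilage, was the highest of the list at 7.41 from a single probe set. Of 8 tenocyte genes 1 was bright (12.5%, against 37.1% of all genes), Egr1, at 8.68, which is not specific to tendon. Scx and Mkx, tendon transcription factors, were dim at 6.41 and 6.07, and Tnmd, tenomodulin, read 2.69.

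Most transcription factors of mesenchyme were bright. Of 40, 31 were above background and 26 (65.0%) were bright, against 37.1% of all genes, with a median of 8.73. Snai2, a repressor of epithelial genes, read 11.00, Nr2f2, an orphan nuclear receptor of mesenchyme, 10.66, and the forkhead genes Foxc2 and Foxc1 10.52 and 10.04. Prrx2 and Prrx1, homeobox genes of limb mesenchyme, read 10.22 and 9.90, and Twist1 and Twist2 8.89 and 7.84. Ebf1 and Ebf3, which in mouse marrow act with Foxc1 in niche stromal cells, read 8.73 and 7.66, whereas Ebf2 read 4.12. The patterning genes Shox2, Pitx1 and Tbx15 of limb and body wall read 9.39, 8.72 and 9.49. En1, Meox2 and Osr2 were at background, at 2.44, 2.06 and 4.02.

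The HOX genes, which keep a record of body position, were bright less often by count than all genes, with 7 of 33 bright (21.2%, against 37.1% of all genes) and 18 above background (54.5%, against 64.9%). The bright members lay in the HoxC and HoxA clusters. All 7 measured HoxC genes were above background and 5 were bright, with Hoxc10 highest at 10.75, and of 9 HoxA genes 6 were above background and 2 were bright, Hoxa9 at 9.15 and Hoxa10 at 9.02. None of 9 HoxB and 8 HoxD genes was bright, and their medians were 4.76 and 3.69.

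Surface markers used for stromal cells were bright about as often as all genes. Of 18, 7 were bright (38.9%, against 37.1% of all genes), among them Itgav, Itgb1, Pdgfrb, the PDGF receptor of perivascular cells, at 11.64, Cd44, the hyaluronan receptor, at 11.47, and Vcam1, an adhesion molecule for blood cells, at 8.94. Pdgfra was just bright at 7.86. Eng and Nt5e, endoglin and ecto-5'-nucleotidase, were dim at 6.55 and 6.27. Thy1, a marker widely used for mesenchymal stromal cells, read 4.12 and Cd34 3.24, both at background and each from 1 probe set.

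Niche factors that hold blood stem cells were mostly above background, whereas the osteoclast factor RANKL was not. Of 22, 19 were above background (86.4%), against 64.9% of all genes, and 10 were bright (45.5%), against 37.1% of all genes, with a median of 7.11. Cxcl12 was the highest at 13.36, rank 81 of 18194 genes, with other probe sets at 11.76 and 5.53. Csf1, the growth factor of macrophages, read 11.74, Kitl, stem cell factor, 9.93, Angpt1, angiopoietin 1, 9.17, and Il7, the growth factor of early B cells, was dim at 7.25. Tnfrsf11b, osteoprotegerin, the decoy receptor that blocks osteoclast formation, was bright at 10.60, and Tnfsf11, RANKL, the osteoclast factor that it blocks, was at background at 3.82. Lepr, the leptin receptor that marks niche stromal cells in adult mouse marrow, was dim, with 5.46 and 5.20 by its brighter probe sets and 2.35 and 1.86 by the others. Il6, an inflammatory cytokine, read 2.64 and Csf2 3.85.

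Markers of other cell types were rarely bright. Of 254 genes over 17 lists, 90 (35.4%) were above background, against 64.9% of all genes, and 11 (4.33%) were bright, against 37.1% of all genes. Their median was 4.51, under the background level. Because 79 of these markers were dim, a dim signal on this array does not set a gene apart from markers of other cell types. For blood cells, Ptprc, the pan-leukocyte antigen CD45, read 2.78, Itgb2 3.69, Coro1a 3.74, the macrophage gene Adgre1 3.51, the T cell gene Cd3g 3.14, the B cell gene Cd79a 4.81, the red cell gene Gata1 4.55 and the neutrophil genes Mpo and Elane 3.82 and 3.63, all at background. For endothelium, Pecam1 read 3.94, Cdh5 4.35, Tek 3.30 and Vwf 3.70. For epithelium, Cdh1, E-cadherin, read 2.23 and Krt14 4.70, and for pluripotent cells Pou5f1 read 4.01 and Nanog 3.20. Other members of these lists were above background. They made up 7 of 14 pan-leukocyte genes (50%), 8 of 20 endothelial genes (40%) and 9 of 20 epithelial genes (45%). Among the 17 lists the share was highest for megakaryocytes, 5 of 8 (62.5%). It was lowest for neutrophils and mast cells, 3 of 16 (18.8%), against 64.9% of all genes.

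The 11 bright exceptions included genes with known uses in other cells. Tfrc, the transferrin receptor of dividing cells, read 11.01 and Pmp22, a membrane protein that fibroblasts also make, 10.62. Mecom and Mllt3, regulators of stem cells, read 9.93 and 9.03, although other probe sets of Mecom read 5.02 and 2.91. Ebf1, listed for B cells, was already counted among stromal factors. Nfatc1, a calcium-regulated transcription factor, read 8.32 and Ctsk, a collagen-degrading protease of osteoclasts that fibroblasts also make, 8.14. Acta1, skeletal muscle actin, read 8.47 from 1 probe set, Stmn2, a neuronal tubulin-binding protein, 8.44 and Egfl7 7.77. Zap70, a T cell kinase, read 8.42, with 6.71 and 5.39 by its other probe sets. The highest dim signals included Ighm at 7.61, whose other 10 probe sets read 5.68 or less, Cd14, a lipopolysaccharide co-receptor, at 7.56, and Epcam at 7.48, with 3.97 by its other probe set.

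**Figure D3:**
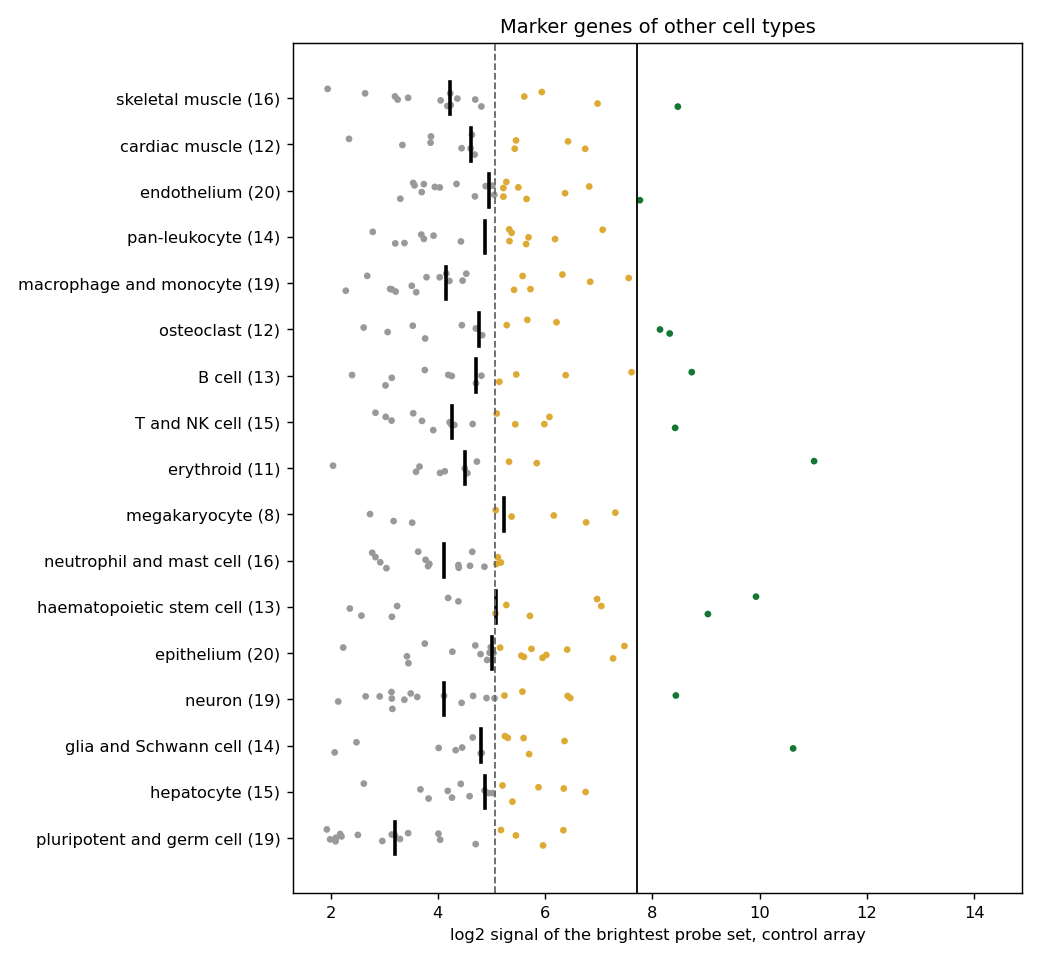
Log2 signal of the brightest probe set of marker genes (points) of 17 other cell types on the control array, with colours, median bars and lines as in the plot of matrix and lineage genes. In all, 11 of 254 different genes lie right of the solid line, with Tfrc highest at 11.01.

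Genes of secreted factors were bright less often by count than all genes. Of 250, 50 (20.0%) were bright, against 37.1% of all genes, and 128 (51.2%) were above background, against 64.9%, with a median of 5.12. Among FGF genes 1 of 22 was bright (4.55%), Fgf7, a growth factor that stromal cells send to epithelium, at 11.15 and 10.78 by its other probe set. In the TGF-beta superfamily Bmp4, which acts in bone and blood development, read 10.82. Inhba, the activin A subunit, read 10.60, with 4.00 by its other probe set, under the background level. Tgfb1, Tgfb2 and Tgfb3 read 9.22, 8.94 and 8.80, while Bmp2, Bmp6 and Gdf5 read 2.21, 3.55 and 3.62, at background. The antagonists Fstl1 and Fst, the activin-binding follistatin, read 12.76 and 10.53, and Nog, noggin, read 3.82. Of 9 PDGF and VEGF genes 6 were bright (66.7%, against 37.1% of all genes), led by Pdgfa at 10.32.

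No WNT ligand gene was bright, but an amplifier of WNT signals was among the brightest secreted genes. Of 19 WNT genes, against 37.1% bright among all genes, 7 were dim, with Wnt7a highest at 7.15, and 12 were at background, among them Wnt5a at 3.71. Rspo2, an R-spondin that strengthens WNT signals through LGR receptors, read 12.19 by one probe set and 6.98 by the other, and Rspo3 read 8.08. The secreted WNT binders Sfrp2 and Dkk3 read 10.14 and 8.58, and Dkk1, a WNT antagonist, 4.00.

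Among cytokines and chemokines, few genes were bright. Of 33 chemokine genes 3 were bright (9.09%, against 37.1% of all genes), Cxcl12, Ccl9 at 10.86 and Cx3cl1, which is also membrane-bound, at 8.29, and the inflammatory genes Cxcl1 and Ccl2 were dim at 7.02 and 6.58. Of 44 interleukins and related genes 4 were bright (9.09%), Csf1, Kitl, Il1rn, the interleukin 1 receptor antagonist, at 9.34, and Clcf1 at 8.42. Il1b at 4.76, Tnf at 4.99 and Ifng at 2.45 were at background. Bdnf, a neurotrophin, read 10.65 and Igfbp7 11.91, whereas Igf1 and Igf2 were dim at 5.13 and 5.28. Inhibitors of matrix proteases were bright, with Timp1, Timp2 and Timp3 at 12.66, 12.59 and 11.33. The membrane collagenase Mmp14 read 11.91, its substrate Mmp2, a gelatinase, was dim at 6.84, and Mmp13 and Mmp3, inducible proteases, were at background at 3.34 and 3.14.

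Receptor genes were bright in 72 of 247 cases (29.1%), against 37.1% of all genes, with a median of 5.72. Receptor tyrosine kinases and cytokine and TNF family receptors were bright at like shares, 16 of 51 (31.4%) and 14 of 44 (31.8%), whereas 1 of 13 toll-like receptor genes (7.69%) was. Of these 13, 9 were dim and 10 were above background (76.9%), against 64.9% of all genes. Among receptor tyrosine kinases Axl, the receptor of GAS6, read 12.03 by one probe set and 2.21 by the other, Ddr1 and Ddr2, collagen receptors, 10.63 and 9.08, Igf1r 9.38, Met, the hepatocyte growth factor receptor, 8.57, and Fgfr1 and Fgfr2 8.48 and 8.26. WNT receptors were bright in 11 of 20 cases (55%, against 37.1% of all genes), with Fzd2, Fzd1 and Fzd7 at 10.49, 9.88 and 9.80. Among cytokine receptors the shared interleukin 6 family chains Il6st, Lifr and Osmr read 9.97, 9.43 and 9.27, the growth hormone receptor Ghr 11.28, and the TNF family receptors Tnfrsf12a and Tnfrsf1a 11.83 and 10.55. None of 20 chemokine receptor genes was bright, with Ackr1 highest at 5.92. Among G protein-coupled receptors F2r, the thrombin receptor, was highest at 12.57, and among nuclear receptors the glucocorticoid receptor Nr3c1 read 10.09, Vdr, of vitamin D, 7.22, and the oestrogen receptor Esr1 4.69, at background.

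**Figure D4:**
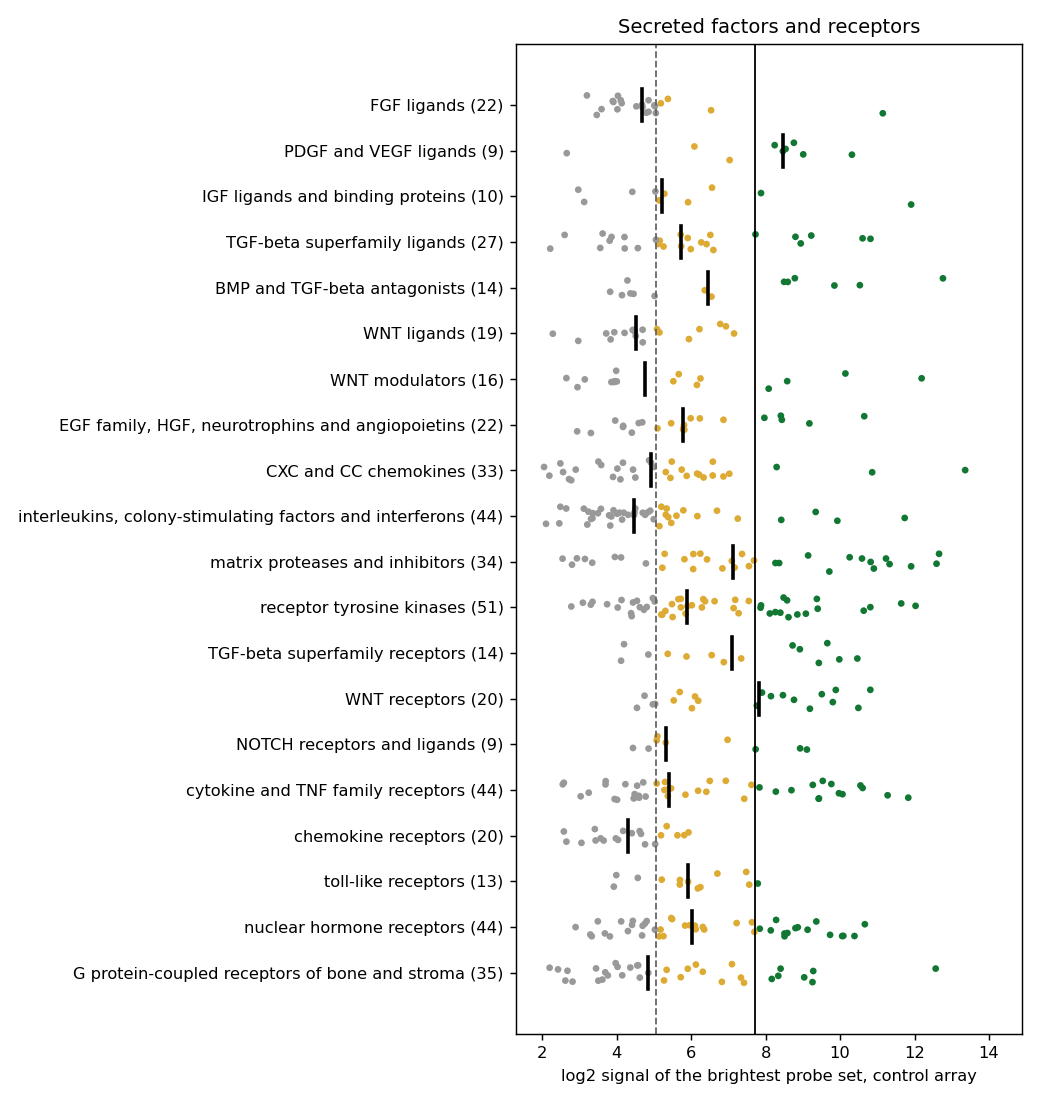
Log2 signal of the brightest probe set of secreted factor genes and receptor genes (points) on the control array, by list, with colours, median bars and lines as in the plot of matrix and lineage genes. The WNT ligand and chemokine receptor lists have 0 bright genes, of 19 and 20.

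Ligand genes were set beside the genes of their receptors on the same array. The 21 pairings with values on both sides were chosen after the signals were seen, so the counts are a description. In 8 pairings a ligand and a receptor were both bright. These included Bmp4 with Bmpr2 at 10.46 and Bmpr1a at 9.43, Pdgfa with Pdgfrb, Fgf7 with Fgfr2, whose splice forms the array does not separate, and Rspo2 with Lgr4 at 9.51 and Lgr5 at 9.19. The TGF-beta genes paired with Tgfbr2 at 9.66 and Tgfbr1 at 8.72. The VEGF pairing was bright through the co-receptors Nrp1 and Nrp2, at 11.09 and 9.53, whereas the signalling receptors Kdr, Flt1 and Flt4 were dim at 5.65, 6.37 and 5.22. The GAS6 pairing was bright through Pros1 at 8.58 and Axl at 12.03, whereas Gas6 itself was dim at 7.60. Of its other receptor genes, Tyro3 was dim at 7.27 and Mertk was at background at 4.97.

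In 8 pairings a gene on the ligand side was bright and none on the receptor side was. For interleukin 1, 1 of the 8, the bright gene was the antagonist Il1rn, and the ligand genes Il1a and Il1b were at background at 3.31 and 4.76. Cxcl12 stood beside a dim Cxcr4 at 5.19 and Ackr3 at background at 2.64, Kitl beside Kit at 4.38, and Angpt1 beside Tek. Csf1 stood beside a dim Csf1r at 6.32, and Bdnf beside a dim Ntrk2 at 6.29 and Ngfr at background at 4.55. The receptors of Cxcl12, Kitl, Angpt1, Csf1 and Bdnf are known from blood cells, endothelium and nerve, among others. The remaining pairings were Inhba beside dim activin receptor genes, with Acvr2a highest at 7.34, and Gdnf beside a dim Ret at 5.90. In 4 pairings a gene on the receptor side was bright and none on the ligand side was. For RANKL, 1 of the 4, the bright gene was the decoy Tnfrsf11b, and Tnfrsf11a, the signalling receptor, was at background at 4.71. The others included F2r, whose ligand thrombin comes from plasma and whose gene F2 read 4.47, and Igf1r and Igf2r, with Igf1 and Igf2 dim.

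Bright genes differed from the rest in the letters of their promoters, which the choice of levels did not use. CpG-rich promoters are known for genes that many cell types transcribe, and TATA motifs for tightly regulated genes. Promoters from 250 bases before to 50 bases after the start were taken from the RefSeq table on GRCm38.p6, which held 14453 of the 18194 genes, with the entry listed first where a gene had several. The ratio of observed to expected CG pairs was over 0.6 in 82.1% of 5569 promoters of bright genes, 57.5% of 3975 of dim genes and 28.0% of 4909 of genes not above background, beside 57.0% over all. Among genes with 1 probe set the shares were 80.1%, 49.6% and 23.8%. The letters TATAAA, searched on the sense strand 15 to 45 bases before the start, stood in 0.898% of bright, 2.47% of dim and 4.66% of genes not above background, and in 2.61% of all promoters.

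Promoters of 3 bright genes are shown beside 2 genes at background, to let the CG pairs, in capitals, be compared over the 250 bases before the start. They are Cxcl12, chosen as the brightest niche factor, Rps2, as a brightly read ribosomal protein gene, and Vim, as a bright gene with TATAAA in the searched window, followed by Mpo, of neutrophils, and Myh4, of fast muscle, which also has TATAAA there. All lie on the plus strand of GRCm38.p6, at chr6:117168285-117168534 for Cxcl12, chr17:24719813-24720062 for Rps2, chr2:13574061-13574310 for Vim, chr11:87793534-87793783 for Mpo and chr11:67237562-67237811 for Myh4.
Cxcl12: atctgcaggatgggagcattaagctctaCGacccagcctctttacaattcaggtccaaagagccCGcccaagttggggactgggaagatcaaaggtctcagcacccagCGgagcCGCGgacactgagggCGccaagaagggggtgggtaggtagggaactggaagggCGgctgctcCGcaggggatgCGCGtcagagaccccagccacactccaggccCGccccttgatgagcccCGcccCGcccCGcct
Rps2: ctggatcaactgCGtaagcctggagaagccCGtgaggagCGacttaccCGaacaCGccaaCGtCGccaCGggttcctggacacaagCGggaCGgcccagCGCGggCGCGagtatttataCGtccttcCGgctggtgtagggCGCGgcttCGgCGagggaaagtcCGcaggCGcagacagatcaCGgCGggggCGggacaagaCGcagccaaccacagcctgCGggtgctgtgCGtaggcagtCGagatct
Vim: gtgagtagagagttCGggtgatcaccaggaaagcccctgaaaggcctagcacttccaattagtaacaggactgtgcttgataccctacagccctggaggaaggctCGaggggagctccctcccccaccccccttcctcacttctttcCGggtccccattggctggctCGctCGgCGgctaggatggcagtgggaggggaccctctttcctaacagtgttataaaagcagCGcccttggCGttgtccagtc
Mpo: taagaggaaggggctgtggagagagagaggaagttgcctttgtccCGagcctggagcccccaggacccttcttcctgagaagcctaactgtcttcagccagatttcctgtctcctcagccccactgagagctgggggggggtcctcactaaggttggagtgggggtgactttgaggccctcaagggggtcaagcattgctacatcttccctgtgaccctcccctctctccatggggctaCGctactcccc
Myh4: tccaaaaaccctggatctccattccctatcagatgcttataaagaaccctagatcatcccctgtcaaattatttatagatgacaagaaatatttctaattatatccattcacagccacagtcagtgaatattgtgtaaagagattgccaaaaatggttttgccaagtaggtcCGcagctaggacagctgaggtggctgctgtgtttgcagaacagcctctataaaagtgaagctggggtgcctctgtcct
The printed stretch holds 14 CG pairs for Cxcl12, 29 for Rps2 and 8 for Vim, with signals of 13.36, 14.23 and 14.46. It holds 2 pairs for Mpo and 1 for Myh4, with signals of 3.82 and 2.64. Vim had a CpG ratio of 0.421 over the whole promoter, under 0.6, and a ratio over 0.6 was found in 73.4% of 79 promoters of the 100 brightest genes. TATAAA stood in the window in 3 of these 79 (3.80%), a larger share than the 0.898% of all bright genes.

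**Figure D5:**
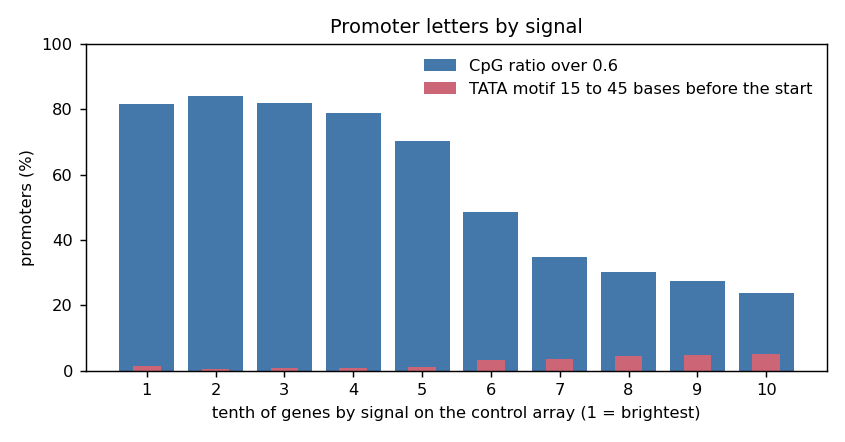
Share of promoters (%) with a CpG ratio over 0.6 (wide bars) and with a TATA motif 15 to 45 bases before the start (narrow bars), for 10 equal groups of genes by log2 signal on the control array, from brightest (1) to dimmest (10). The first bar is at 81.6% and the last at 23.9% for the CpG ratio, and at 1.45% and 5.10% for the TATA motif.

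The shares differed between gene groups. Cytosolic ribosomal protein genes had a CpG ratio over 0.6 in 86.5% of 37 promoters, and mesenchymal transcription factors in 18 of 24. Collagen genes, which were bright about as often as all genes, had it in 33.3% of 33 promoters. Contractile genes, most of which were bright, had it in 33.3% of 12 promoters. These shares pool bright, dim and background genes, so they do not show the promoters of the bright members alone. For secreted factors the share was 57.9% in 38 bright genes, 18 of 45 in dim genes and 29.0% in 93 genes not above background. Secreted factors also had the motif TATAAA in the window more often by count, in 23 of 176 promoters (13.1%), against 2.61% of all promoters. Of these 23 genes, 16 were not above background, such as Il1b, Tnf, Ifng and Cxcl3, and 4 were bright, Kitl, Adamts1 at 9.71, Tgfb2 and Gdnf at 8.41.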

How the data were processed

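Total RNA was labelled from 500 ng with a kit that primes at the poly-A tail and hybridised to Mouse Genome 430 2.0 arrays, per the labels' protocols, from RNA with an integrity number over 9.5. The authors deposited 1 log2 value per probe set and array, per the value table. The log base was taken from the range of 1.53 to 14.48, and for the summary of probes and the scaling of arrays the method was not given in the sources used here.

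Of 45101 probe sets, 34958 had 1 symbol in the platform annotation and were used. Of these, 34754 were matched to a current symbol through the Entrez number. The brightest probe set on the control array stood for a gene. No test was possible with 1 array. The background and bright levels are described with the results. Genes at these levels were counted in 57 lists, and 3 further lists, the ligand pairings and the bright level were added after values were seen. The members and lists were chosen with earlier results of these data known. The naming rule allowed the 40 brightest genes and any list member, preferring the brightest and those at background in mostly positive lists and those above background in the others. Which of these the text names, with markers of other cells at background, was chosen after their values were seen. Alternatives changed the background level, the probe set, the scaling, the symbols and the array. Python 3.11.15, numpy 2.4.6 and pandas 2.3.3 were used.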

Additional observations from a re-analysis of the deposited data

How the results depend on the processing

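With the background level at the 99th percentile of sensory receptor genes, 45 of 254 markers of other cell types were above it, and with the dimmest probe set of each gene 55 were, against 90 as reported. The share of all genes above background also fell in these settings, to 54.8% and 46.9%, from 64.9% as reported. At the bright level, added after values were seen, the counts were 6748 of 18194 genes, 80 of 176 matrix, 49 of 112 stromal, 28 of 82 lineage, 11 of 254 other cell type, 50 of 250 secreted and 72 of 247 receptor genes. Every other alternative left these 7 counts within 1.5 times. Over 60 single lists, the count moved by more than 1.5 times for 47 lists at the bright level, 25 at the 99th percentile, 23 with the dimmest probe set, 8 with the median probe set, 6 without probe sets of shared sequence, 3 at the 90th percentile and 1 at the median of all probe sets. It moved for 0 lists with quantile normalization, symbols not updated or the mean of the 4 arrays. The median gap between a gene's 2 brightest probe sets was 1.00 over all genes with several, and 1.12 without probe sets of shared sequence. The CpG shares were 84.9%, 58.3% and 27.4% for bright, dim and other genes with 1 promoter entry. Protein length was not analysed here. No paired analysis was possible because each group has 1 array. Signal over background limits the dim genes, and the background rests on 73 genes of which 67 have 1 probe set.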

Other observations

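Genes of DNA replication and mitosis, listed after other values were seen, were nearly all bright. All 27 measured genes of DNA replication and mitosis were above background and 26 (96.3%) were bright, against 37.1% of all genes. Pcna, the replication clamp, read 12.88, Rrm2, a ribonucleotide reductase subunit, 12.60, Mki67 11.90 and Top2a, a topoisomerase, 11.65. Among cell cycle inhibitors Cdkn1a, a p53 target, read 10.95 and Cdkn1b 10.36, while the neighbouring inhibitor genes Cdkn2a and Cdkn2b were dim at 5.91 and 5.91, and Cdkn1c was at background at 3.11. Ccnd1 and Ccnd2, the cyclins that start the cycle, read 12.06 and 11.84.

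Imprinted genes, of which at least some tissues use the copy from 1 parent, were above background about as often as all genes. They were so in 14 of 22 cases (63.6%, against 64.9%), and the signal does not tell the copies apart. Of the 22, 6 were bright (27.3%, against 37.1% of all genes), with Gnas, a G protein subunit, at 13.40, Grb10, a growth restrainer, at 11.06 and Ndn at 10.72. Mest at 4.68, Peg3 at 4.30 and Nnat at 3.05 were at background, and Igf2 and Dlk1 were dim at 5.28 and 5.06. Of 6 sex chromosome transcripts with a value, 3 were above background (50%, against 64.9% of all genes) and 0 were bright. These 3 were the Y-linked genes Eif2s3y, Kdm5d and Uty, dim at 6.91, 5.91 and 5.39, with other probe sets down to 2.25, 3.24 and 2.34. The other 3 were at background, among them Xist, the RNA of the silenced X chromosome, at 4.43.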
